A study of Rattus norvegicus with 12 samples.

Results

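The genes described are 9 matrix proteases and protease inhibitors of the rat: the Adamts proteases Adamts1 and Adamts5, the matrix metalloproteases Mmp2, Mmp3 and Mmp14, the inhibitors Timp1, Timp2 and Timp3, and the plasminogen activator Plau. They were taken by gene name from a table of 16074 gene IDs. All 9 names were found. Of these, 6 passed the filter on low counts and were among the 11398 genes tested, with at least 16 counts in each library. Timp2 was left out of the fit reported first because the table holds 2 rows for it that differ in the control columns, and it was tested in added fits. Mmp3 and Plau had 3 counts or fewer in each library.

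The cells were H9C2, an established line of rat heart-derived cardiomyoblasts, in 3 groups of 4 libraries. Control cells were wild type, stayed under normal oxygen and carried no vector. Cells of the hypoxia/reoxygenation (H/R) group were wild type with an empty lentiviral vector and spent 8 h at 1% oxygen and then 2 h under normal oxygen. Cells of the LITAF group carried a lentiviral vector that overexpresses LITAF and went through the same H/R. H/R against control therefore holds the vector as well as H/R, and the effects of the vector and of H/R cannot be told apart. The sources used here do not name the promoter of the vector or say whether cells were pooled or cloned. The labels call the replicates biological without naming separate cultures, so p-values refer to the variation among these libraries, which may be technical.

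The matrix metalloproteases and the Adamts proteases are zinc enzymes that are made as inactive precursors and cut collagens, proteoglycans and other matrix proteins. The Timp proteins block their active sites, and the plasminogen system makes plasmin, which cuts matrix and can activate some of the metalloproteases. In heart muscle and its fibroblasts these enzymes and inhibitors are known for their part in matrix turnover after ischaemia.

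In H/R cells the protease genes Adamts1, Adamts5, Mmp14 and Mmp2 and the inhibitor gene Timp3 were lower than in control cells, by 3.39-fold for Mmp14 to 11.3-fold for Adamts5, while the inhibitor gene Timp1 was 1.44-fold higher. These 5 falls and 1 rise, 6 of the 6 members tested, stand against 63.6% of all genes called in that comparison (31.8% higher and 31.8% lower; 31.3% lower without control library 2, where the same 5 fell). Against control, LITAF cells showed the same 5 genes lower and Timp1 higher, beside 64.6% of all genes called (32.6% lower and 32% higher; 32.2% lower without control library 2). With the LITAF vector, Adamts1 was 1.77-fold higher than in H/R cells, 1 of 6 members against 4.88% of all genes called (3.73% higher and 1.15% lower). Of all genes called there, 76.4% were higher, and 61.0% when library totals replaced TMM scaling. That share was 53.9% without LITAF library 1 and 86.9% without LITAF library 4. The values for Timp3 and Timp2 were also higher with the LITAF vector, by 1.79-fold and 1.49-fold, and passed the test only in some of the fits. Levels are CPM, the counts of a gene per M counts of its library after TMM scaling. Tests are edgeR's quasi-likelihood test with Benjamini-Hochberg adjustment over all genes, and log2 fold changes carry the standard error of the fit.

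**Figure D1:**
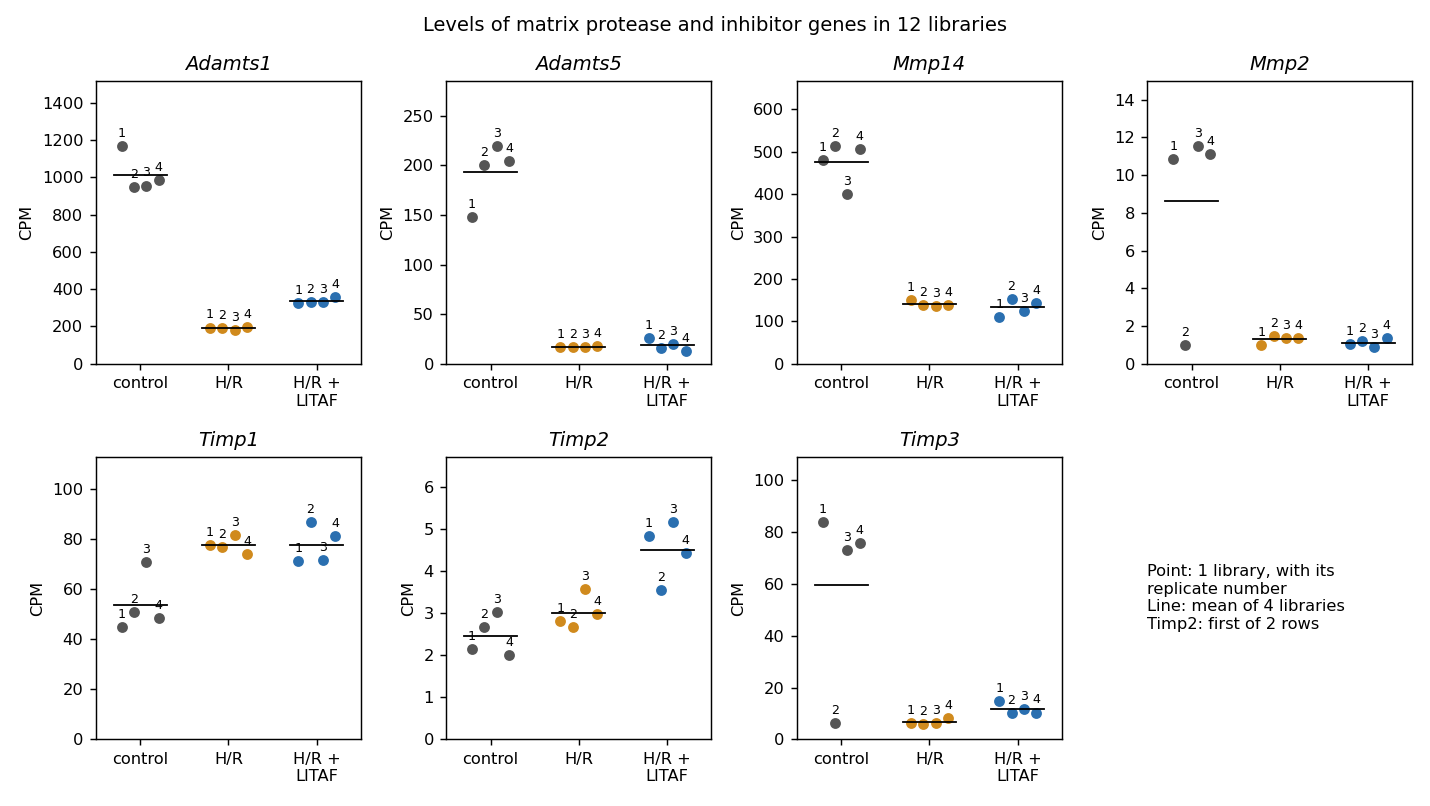
CPM (linear axis) of 7 members in the 12 libraries; each point is 1 library with its replicate number and each line the mean of 4 libraries. Adamts1, Adamts5 and Mmp14 are lower in all 8 H/R libraries than in any control library, and control library 2 lies with the H/R libraries for Mmp2 (1.00 CPM) and Timp3 (6.39 CPM). Groups that do not overlap with control are common (58.6% of all genes for H/R and 52.1% for LITAF).

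Total counts were 19.2 to 20.7 M in control, 16.9 to 18.1 M in H/R and 17.2 to 18.4 M in LITAF libraries. Litaf, the overexpressed gene, was at 456.2 to 491 CPM in control, 549.1 to 618.5 in H/R and 2008 to 2691 CPM in LITAF libraries, as labelled. All libraries carry the same batch label. Control library 2 stood apart in a small set of genes. By a rule chosen after seeing the data, 43 of the 11398 genes in it lay at least 2 log2 units below the other 3 control libraries while those 3 were within 1 log2 unit of each other; in each of the other libraries this was so, against its own group, for at most 3 genes. Of the 43, 42 were nearer to the H/R mean than to the other controls. The 43 were picked as far below the other controls, so even an H/R mean slightly under those controls counts as nearer. This was so for the gene Ankmy1, among others, and the count does not show how alike control library 2 and H/R were. Mmp2 and Timp3 are among the 43. Results for Mmp2 and Timp3 are therefore given with and without this library. The values of same-numbered control and H/R libraries deviated from their group means together (r = 0.302 to 0.568 across genes), and values that were not whole numbers made up 2.84 to 3.40% of the control columns and 11.4 to 12.6% of the others. The part of these differences in the fold changes against control was not tested.

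**Figure D2:**
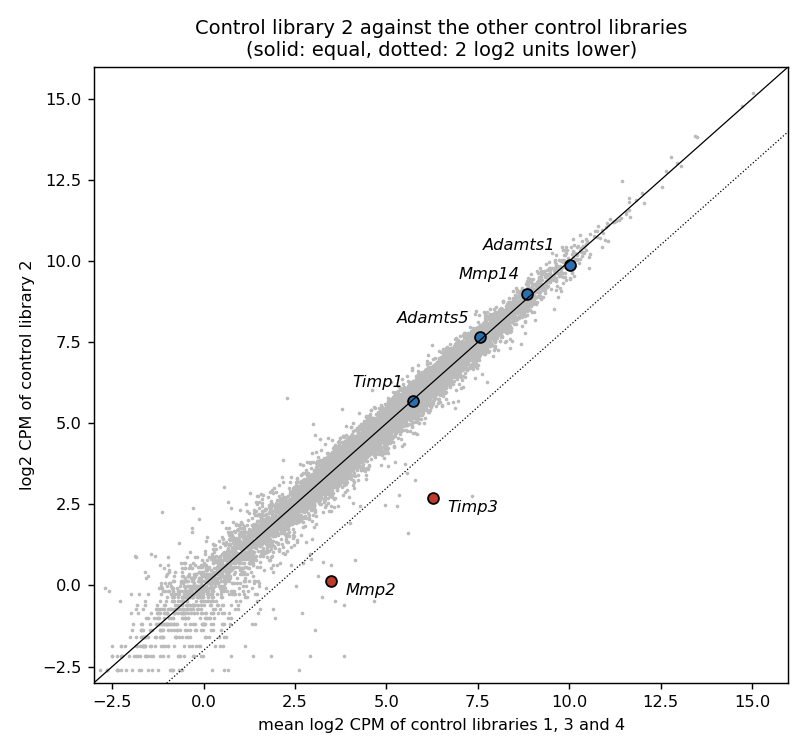
Log2 CPM of control library 2 against the mean of control libraries 1, 3 and 4 for the 11398 genes tested (grey points), with 6 members marked. Mmp2 and Timp3 (red) lie below the dotted line that marks 2 log2 units, and Adamts1, Adamts5, Mmp14 and Timp1 (blue) lie near the line of equal values.

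The labelled cell type was checked against markers. The myoblast genes Myod1 and Cdh15 were present in all groups (88.0 to 258 and 377 to 522 CPM as group means), while Ryr2, the calcium release channel of mature heart muscle, was near 0 (0.0410 to 0.0894 CPM). The summed level of 10 striated muscle markers was 2420 to 6830 CPM in control, 621 to 725 in H/R and 691 to 808 in LITAF libraries. Myog, a late myoblast factor, made up most of the control sum (group means of 3870, 14.1 and 32 CPM in control, H/R and LITAF). Tnnt2 (304, 67.9 and 169 CPM), Myod1 (258, 88.0 and 99.8 CPM), Gata4 (33, 17.3 and 16 CPM) and Cdh15 (522, 437 and 377 CPM) were also lower in H/R and LITAF than in control. Myh3 (21, 4.95 and 22 CPM) and Actc1 (1.3, 0.687 and 4.78 CPM) were lower than control in H/R alone. Des (3.70, 13.0 and 15.2 CPM) and Nkx2-5 (6.84, 16.5 and 17.1 CPM) were higher in the H/R and LITAF groups. The sum of 7 fibroblast and mesenchymal markers was 54500 to 71600, 26200 to 29100 and 29400 to 37800 CPM. Nearly all of it was Col1a1 (34800, 12600 and 16100 CPM) and Col1a2 (27600, 10900 and 14100 CPM), while Vim was higher in the H/R and LITAF groups (1000, 3040 and 2710 CPM). Their part in the results below was not tested, and fewer cells of a type cannot be told apart from less RNA per cell. Leukocyte markers (5 of 7 in the table) summed to 1.24 to 2.52 CPM and endothelial markers (5 of 5) to 0.057 to 1.39 CPM, with Cdh5 and Kdr at 0 in control and LITAF. Epithelial markers (3 of 5) summed to 39.9 to 76.0 CPM in LITAF and to at most 40.4 CPM in the other libraries, nearly all from Krt8, with Epcam at 0 in control and LITAF.

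Adamts1, a secreted protease that cuts the proteoglycans versican and aggrecan, was measured at 1168, 951, 957 and 985 CPM in control libraries 1 to 4. The H/R libraries gave 194, 190, 180 and 197 CPM, and the LITAF libraries 326, 331, 329 and 358 CPM. The 3 groups did not overlap, with LITAF between H/R and control. Of all genes, 58.6% did not overlap between H/R and control, 52.1% between LITAF and control and 18.9% between LITAF and H/R. The fall from control to H/R was log2 -2.42 ± 0.10 (adjusted p = 5.94e-12), and the LITAF group stayed below control by log2 -1.60 ± 0.09 (adjusted p = 4.24e-10). Between the LITAF and H/R groups Adamts1 rose by log2 0.82 ± 0.09 (adjusted p = 4.41e-05), higher in 4 of 4 libraries. With each library left out in turn this rise was log2 0.79 to 0.86, and the highest adjusted p was 0.000597. The 3 comparisons share their groups, so they are not independent of each other.

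Adamts5, an aggrecan- and versican-cutting enzyme, was at 148, 201, 219 and 204 CPM in control libraries 1 to 4 and at 17.1, 17.1, 16.4 and 18.0 CPM in H/R. The LITAF libraries gave 25.8, 15.3, 20.2 and 13.1 CPM. All 8 H/R-treated libraries lay far below control, and the LITAF libraries were spread on either side of the tight H/R values. No overlap with control was seen for 58.6% of all genes in H/R and 52.1% in LITAF. The fall was log2 -3.49 ± 0.19 from control to H/R (adjusted p = 1.59e-10) and log2 -3.37 ± 0.19 from control to LITAF (adjusted p = 2.1e-10). LITAF against H/R gave log2 0.12 ± 0.18 (adjusted p = 0.758), and the sign turned to log2 -0.06 without LITAF library 1. Set against each other within a library, there were 8.79 to 9.15 Adamts5 counts per 100 Adamts1 counts in H/R libraries and 3.65 to 7.91 in LITAF libraries, against 12.6 to 22.9 in control. These ranges did not overlap. Timp3 counts per 100 Adamts1 counts did overlap between H/R (3.04 to 4.10) and LITAF (2.90 to 4.59), and control library 2, at 0.672, lay below the rest of the control range up to 7.69. The ratios were not tested.

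The table of RefSeq promoters (build GRCr8) held 6 of the 9 members, with no entry used here for Mmp2, Mmp14 or Adamts5. The 250 bases before the gene's start are shown for Adamts1 (chr11:38427385-38427634, minus strand) and Timp3 (chr7:19459559-19459808, minus strand), which fell after H/R and gave higher values with the LITAF vector, and for Mmp3 (chr8:12925031-12925280, plus strand), which had reads in the LITAF group alone. The sources used here do not name the genome build behind the counts. Capitals mark matches on either strand. The motifs searched were TGACTCA, which read from the other strand is TGAGTCA, for AP-1; TGACGTCA for CRE; ACGTG for the core of the hypoxia response element; GCGTGGGCG and GCGGGGGCG for Egr; GGGCGG for Sp1; and TATAAA for the TATA box.
Adamts1: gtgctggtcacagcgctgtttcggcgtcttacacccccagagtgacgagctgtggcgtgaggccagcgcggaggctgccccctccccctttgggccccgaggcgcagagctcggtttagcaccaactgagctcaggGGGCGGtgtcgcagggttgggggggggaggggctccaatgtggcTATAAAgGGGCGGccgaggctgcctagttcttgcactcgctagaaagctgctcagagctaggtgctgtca
Timp3: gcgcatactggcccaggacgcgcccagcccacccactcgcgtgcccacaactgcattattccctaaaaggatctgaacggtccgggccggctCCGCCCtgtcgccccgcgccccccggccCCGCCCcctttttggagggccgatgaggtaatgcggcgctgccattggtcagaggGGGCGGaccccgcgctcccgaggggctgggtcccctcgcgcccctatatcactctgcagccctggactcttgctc
Mmp3: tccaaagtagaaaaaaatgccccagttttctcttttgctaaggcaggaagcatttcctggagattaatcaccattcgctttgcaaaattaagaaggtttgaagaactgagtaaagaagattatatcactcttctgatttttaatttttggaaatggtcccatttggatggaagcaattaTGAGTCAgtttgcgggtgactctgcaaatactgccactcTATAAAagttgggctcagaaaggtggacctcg
Adamts1 held GGGCGG 114 and 63 bases before the start and TATAAA at 70 bases, counted from the first letter of the match. Timp3 held CCGCCC, the reverse complement of GGGCGG, at 158 and 130 bases and GGGCGG at 75 bases. Mmp3 held TGAGTCA at 71 bases and TATAAA at 32 bases. None of these matches overlapped another. Of 33469 promoters of this length, 4.05% held an AP-1 match, 1.59% CRE, 16.6% the hypoxia core, 2.85% Egr, 30.5% Sp1 and 12.9% TATAAA, so a match to GGGCGG is common. Letters of the AP-1, CRE, hypoxia and Egr motifs were not in the windows of Adamts1 and Timp3, which says nothing about binding of these factors elsewhere.

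Mmp14 codes for a membrane-anchored metalloprotease that cuts collagen at the cell surface and activates the Mmp2 precursor. Control libraries 1 to 4 gave 479.5, 513, 400.3 and 506 CPM, H/R libraries 149, 138, 135 and 138 CPM, and LITAF libraries 109, 153, 125 and 144 CPM. Control was above both other groups in every library, and H/R and LITAF overlapped. Such separation from control was common, at 58.6% of all genes for H/R and 52.1% for LITAF. The fall was log2 -1.76 ± 0.12 from control to H/R (adjusted p = 2.22e-09) and log2 -1.84 ± 0.12 from control to LITAF (adjusted p = 1.25e-09). LITAF against H/R gave log2 -0.08 ± 0.12 (adjusted p = 0.75), which became log2 0.03 without LITAF library 1.

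Mmp2, a gelatinase, was low in these libraries. Control libraries 1, 3 and 4 gave 10.9, 11.5 and 11.1 CPM and control library 2 gave 1.00 CPM, from 18 counts. The H/R libraries gave 1.01, 1.48, 1.39 and 1.35 CPM and the LITAF libraries 1.02, 1.20, 0.861 and 1.38 CPM. Control library 2 lay inside the LITAF range and below the lowest H/R library, and the other 3 control libraries were several-fold higher. The fall from control to H/R was log2 -2.72 ± 0.49 (adjusted p = 0.000132) with all libraries and log2 -3.09 ± 0.17 (adjusted p = 1.61e-09) without control library 2. Over all fits with 1 library left out it ran from log2 -3.09 to -2.55, with a highest adjusted p of 0.000968. LITAF against control gave log2 -2.95 ± 0.50 (adjusted p = 7.5e-05), or log2 -3.31 without control library 2, and LITAF against H/R log2 -0.23 ± 0.58 (adjusted p = 0.87).

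Mmp3, stromelysin, had 0 counts in all 4 control and all 4 H/R libraries and 2, 3, 2 and 3 counts in LITAF libraries 1 to 4. A count of 0 in 1 library allows up to 3 counts there, but that bound does not take the replicates together. The zeros held in every control and H/R library. Because the counts are so few, no fold is given. Plau, the urokinase gene, had 0 counts in control, 1, 1, 1 and 3 counts in H/R libraries 1 to 4, and 1, 0, 1 and 0 in LITAF libraries. Both genes were at or under the floor of 3 counts in every library. When no filter on low counts was used, Mmp3 was called higher in LITAF against control (adjusted p = 0.00801) but not against H/R (adjusted p = 0.0739). As Mmp3 had 0 counts in both control and H/R, this split does not show a difference between those 2 groups. The adjustment runs over all genes, of which 64.6% were called against control and 4.88% against H/R in the fit reported first. Plau was called higher in H/R against control without the filter (adjusted p = 0.0327).

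Timp1, a secreted inhibitor of many metalloproteases, was at 44.7, 51.0, 70.7 and 48.3 CPM in control libraries 1 to 4, 77.6, 76.7, 81.6 and 73.8 CPM in H/R, and 71.1, 86.7, 71.5 and 81.3 CPM in LITAF. All 8 H/R-treated libraries were above the highest control library, library 3, and the H/R and LITAF groups overlapped. A lack of overlap with control was common, at 58.6% of all genes for H/R and 52.1% for LITAF. Timp1 rose by log2 0.53 ± 0.13 from control to H/R (adjusted p = 0.00213) and by log2 0.53 ± 0.13 from control to LITAF (adjusted p = 0.00198). LITAF against H/R gave log2 0.00 ± 0.13 (adjusted p = 0.99). Counted against Mmp14 in the same library, there were 9.31 to 17.7 Timp1 counts per 100 Mmp14 counts in control, 52.0 to 60.2 in H/R and 56.5 to 65.1 in LITAF. The files give no gene lengths, so this ratio of counts shows a shift between groups and not how many molecules of each there were. It was not tested.

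Timp3, a matrix-bound inhibitor that also blocks Adamts proteases, was at 83.8, 72.9 and 75.7 CPM in control libraries 1, 3 and 4 and at 6.39 CPM in control library 2. The H/R libraries gave 6.18, 5.76, 6.29 and 8.08 CPM and the LITAF libraries 15.0, 10.3, 11.6 and 10.4 CPM. H/R and LITAF libraries did not overlap, which was so for 18.9% of all genes, and control library 2 lay inside the H/R range. The fall from control to H/R was log2 -3.18 ± 0.55 (adjusted p = 0.000218), and log2 -3.55 ± 0.15 (adjusted p = 1.62e-10) without control library 2. LITAF against control gave log2 -2.34 ± 0.53 (adjusted p = 0.00157) and log2 -2.71 ± 0.15 without that library. LITAF against H/R gave log2 0.84 ± 0.55 and did not pass in the fit of all 12 libraries (adjusted p = 0.424). It passed at the same size, log2 0.84 ± 0.15, in the fit of the H/R and LITAF libraries alone (adjusted p = 0.00897) and without control library 2 (adjusted p = 0.00373). Its adjusted p over all alternatives ran from 0.00373 to 0.643. The standard error was smaller in both of these fits, in which control library 2 took no part.

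Timp2, the inhibitor that also links Mmp14 to the Mmp2 precursor at the cell surface, was low. Its first row gave 2.14, 2.67, 3.04 and 2.00 CPM in control libraries 1 to 4 and the second 2.34, 2.56, 3.29 and 2.53 CPM. Both rows gave 2.82, 2.68, 3.57 and 2.97 CPM in H/R and 4.83, 3.55, 5.16 and 4.43 CPM in LITAF libraries. The highest H/R library lay just above the lowest LITAF library, and the other LITAF libraries were higher than all of H/R. In fits chosen after seeing the data, with such genes kept, H/R against control gave log2 0.29 ± 0.19 with the first row (adjusted p = 0.192) and log2 0.17 ± 0.18 with the last (adjusted p = 0.437). LITAF against H/R gave log2 0.58 ± 0.18, which did not pass with all 12 libraries (adjusted p = 0.0818 and 0.07 for the first and last row). It passed at adjusted p = 0.0484 in the fit of the H/R and LITAF libraries alone. In that fit 1108 of 11292 genes were called in either direction. The fit of all 12 libraries with these rows kept, where Timp2 did not pass, called 559 of 11465 genes (4.88%), with 3.72% called higher. LITAF against control passed with either row, at log2 0.87 ± 0.19 and 0.74 ± 0.18 (adjusted p = 0.000632 and 0.0015).

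**Figure D3:**
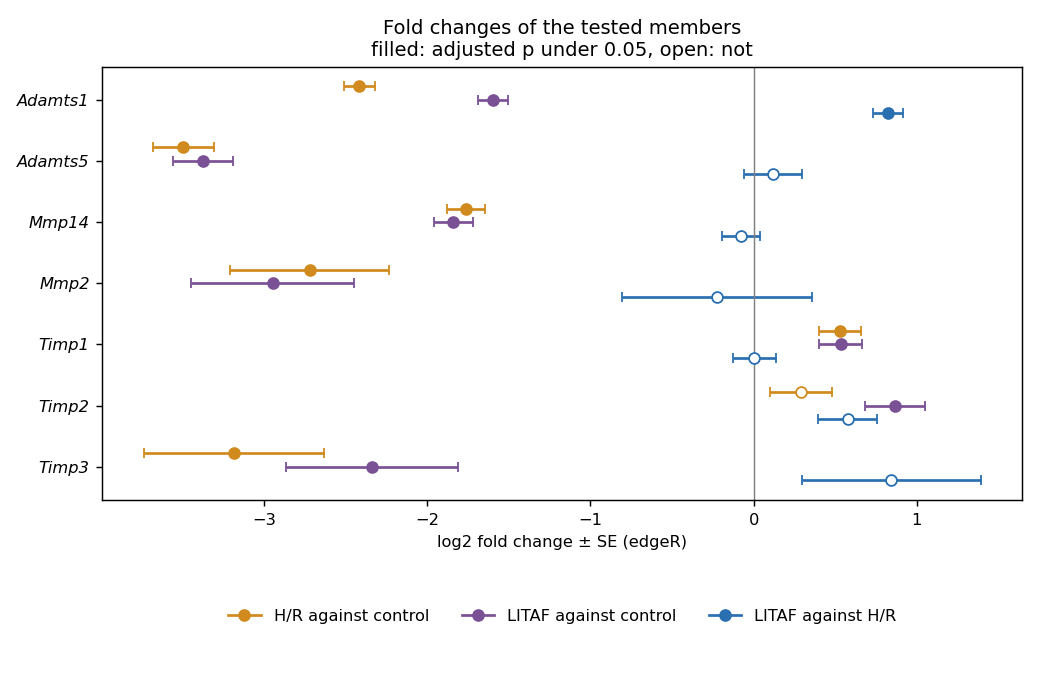
Log2 fold change ± SE (edgeR) of 7 members in the 3 comparisons; filled points have an adjusted p under 0.05. The points for H/R and LITAF against control lie together on the left for Adamts5, Mmp14 and Mmp2, Adamts1 has the only filled point for LITAF against H/R, and the bars of Mmp2 and Timp3 are the widest; Timp2 comes from the added fit with its first row.

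**Figure D4:**
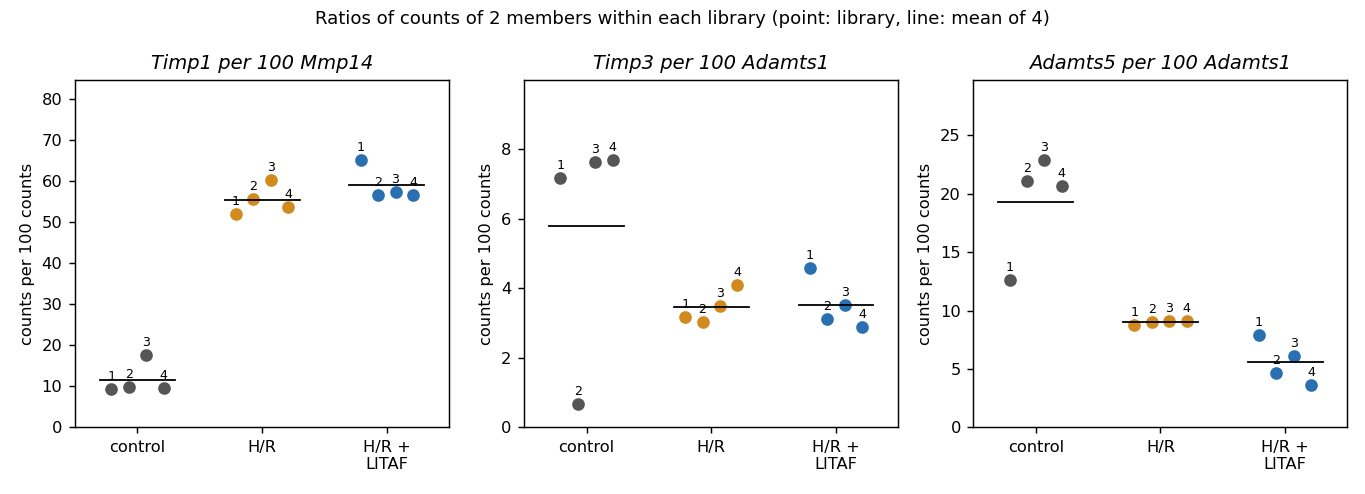
Counts of 1 member per 100 counts of another in each library (points, with replicate numbers; lines are means of 4). Timp1 per 100 Mmp14 is 9.31 to 17.7 in control and at least 52.0 in the other libraries, and Adamts5 per 100 Adamts1 is lowest in the LITAF libraries.

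The LITAF libraries differed among themselves. The leading axis of variation within the H/R and LITAF groups held 52.3% of the variance, with scores of -0.68, 0.63, -0.20 and 0.25 for LITAF libraries 1 to 4 and of -0.13 to 0.12 for the H/R libraries. Litaf itself was higher in libraries 1 and 3 (2691 and 2532 CPM) than in libraries 2 and 4 (2008 and 2120 CPM). LITAF libraries 1 and 3 were the higher pair for Adamts5, Timp2 and Timp3 and the lower pair for Mmp2, Mmp14, Timp1 and Adamts1. For Adamts1 the order rests on a small gap, 326 and 329 CPM against 331 and 358. With 4 libraries no relation of the members to Litaf was tested.

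For each member the genes with the closest profiles over the 12 libraries were taken, by the root mean square difference of centred log2 CPM. Only genes with a mean log2 CPM of at least 2 were used. Control library 2 is among the 12, so this choice favours genes that share its low values for Mmp2 and Timp3. The genes named for these members, Ifi27l2a, C10h17orf58 and Pappa, are among the 43 genes far lower in that library. Ifi27l2a was nearest to both Mmp2 (0.40) and Timp3 (0.37), with 124 CPM as the control mean but 6.72 CPM in control library 2. C10h17orf58 (0.46) came next for Mmp2 and Pappa (0.41), a metalloprotease that cuts insulin-like growth factor binding proteins, for Timp3. Mmp14 was closest to Cdc45 (0.079) and Pml (0.082), and Timp1 to Pus1 (0.086) and G6pc3 (0.093). Adamts1 was closest to Tbc1d2b and Serinc5 (0.16 each) and Adamts5 to Rapgef4 and Crb2 (0.22 each). Serinc5 (26.6, 5.74 and 10.4 CPM in control, H/R and LITAF) and Tbc1d2b (390, 89.1 and 128 CPM) had the same order of groups as Adamts1. The choice by profile favours such a shared order.

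Other genes of these families were counted from 7 lists. Of 7 other matrix metalloprotease genes tested, 5 fell in H/R against control, beside 31.8% of all genes, the most being Mmp15, a membrane-type enzyme (3.42 ± 1.17 to 0.741 ± 0.175 CPM; log2 -2.20 ± 0.30, adjusted p = 7.85e-06). Mmp11 changed by log2 -0.68. Mmp16 and Mmp19, at log2 -0.50 and -0.42 (adjusted p = 0.0214 and 0.0194), passed with TMM but not with library totals or upper-quartile scaling; Mmp23 and Mmp28 were called higher with those. Mmp23 was also called higher with the replicate block and without control library 2, and Mmp19 lost its call without that library. These scalings moved the median of all genes to log2 0.13 and 0.12, from 0.01 with TMM. In LITAF against H/R, Mmp15 rose 2.73-fold, to 2.03 ± 0.488 CPM (adjusted p = 0.0133), beside 3.73% of all genes called higher. The other 6 did not pass.

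Of 9 other Adamts genes tested, 7 fell in H/R against control, under each of TMM, library totals, upper-quartile scaling and DESeq2, beside 31.8% of all genes lower with TMM. Adamts9, which cuts versican, fell from 597 ± 88.2 to 46.1 ± 2.53 CPM (log2 -3.70 ± 0.13, adjusted p = 2.62e-12), and Adamts20 from 185 ± 27.5 to 26.1 ± 2.03 CPM. Adamts4, an aggrecan-cutting enzyme, stood at log2 -2.54, Adamts14, a procollagen-processing enzyme, at log2 -2.88, and Adamts7 at log2 -2.03. Adamts2, the main procollagen N-proteinase, did not pass after H/R (log2 -0.21 ± 0.13) and rose with LITAF from 42.6 ± 3.40 to 62.2 ± 5.75 CPM (log2 0.55 ± 0.13, adjusted p = 0.0267). It was the only other Adamts gene called for LITAF against H/R in the fit of all 12 libraries, beside 3.73% of all genes called higher. Adamts7, Adamts10 and Adamts20 (log2 0.56, 0.38 and 0.43) were called as well in some other fits, 4 in place of 1. These were DESeq2, the fit of the H/R and LITAF libraries alone and the fit without LITAF library 1. Each of them also called more of all genes than the 556 called with all 12 libraries, with 1285 without LITAF library 1. Without control library 2, Adamts20 was called beside Adamts2, and with the replicate block Adamts7 and Adamts20 were.

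Reck, a membrane-anchored inhibitor of metalloproteases, followed the order of Adamts1, at 40.0 ± 5.06 CPM in control, 9.27 ± 1.14 in H/R and 13.4 ± 1.25 in LITAF. It was lower in H/R than in control by log2 -2.11 ± 0.13 (adjusted p = 8.05e-10) and rose by log2 0.53 ± 0.13 with LITAF (adjusted p = 0.0267). In the plasminogen system 5 of 9 genes rose and 4 fell after H/R, beside 31.8% of all genes in each direction, and 1 rose and 1 fell with LITAF, beside 4.88% of all genes called. Among the genes that rose after H/R, Serpinf2 (0.0796 to 0.5875 CPM) and Plg (0.442 to 1.208 CPM) were at low levels in both groups. Plaur, the receptor of urokinase, rose from 34.9 ± 4.39 to 98.6 ± 3.58 CPM after H/R (2.82-fold, adjusted p = 1.5e-08), in libraries where Plau itself had at most 3 counts. Plat, tissue-type plasminogen activator, fell (log2 -0.84 ± 0.13). Serpine2, an inhibitor of plasminogen activators and thrombin, fell from 74.8 ± 7.94 to 6.53 ± 0.823 CPM after H/R and further to 4.32 ± 0.592 CPM with LITAF (log2 -0.60 ± 0.14, adjusted p = 0.0231). Lrp1, an endocytic receptor that clears protease-inhibitor complexes, rose with LITAF by log2 0.58 ± 0.15 (adjusted p = 0.0295), a call lost with library totals. Its fall after H/R (log2 -0.36 ± 0.15, adjusted p = 0.0381) lost its call with library totals, upper-quartile scaling and in the fit of the H/R and control libraries alone. For LITAF against H/R, Plgrkt was also called lower with DESeq2 and without LITAF library 1, and Plat higher in the fit of the H/R and LITAF libraries alone.

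All 7 Adam sheddase genes tested fell after H/R, beside 31.8% of all genes, led by Adam10 (log2 -1.78) and Adam9 (log2 -1.29); Adam12 lost its call with library totals, upper-quartile scaling, without control library 2 and in the fit of the H/R and control libraries alone. Adam33 rose with LITAF (log2 0.66 ± 0.15, adjusted p = 0.0149). Of 4 activators and inducers tested 3 fell after H/R, beside 31.8% of all genes. Pcsk6 fell the most (log2 -1.46 ± 0.09, adjusted p = 1.61e-09). The others were Furin, which activates Mmp14 (log2 -0.54), and Pcsk7, whose call was lost with library totals and upper-quartile scaling. Bsg, an inducer of metalloproteases, rose from 452 ± 42.0 to 1488 ± 70.1 CPM. Of 7 matrix substrates 4 fell after H/R, beside 31.8% of all genes: Vcan (versican) fell from 338.5 ± 73.6 to 108 ± 8.67 CPM, and Fbln1, Nid1 and Nid2 also fell. Bgn rose. With LITAF, Bgn, biglycan, rose by log2 0.46 ± 0.11 (adjusted p = 0.0245), beside 3.73% of all genes called higher. The other 6 substrates did not pass. For LITAF against H/R the lists' medians lay between log2 -0.02 and 0.53, beside -0.01 over all genes, and for H/R against control between log2 -2.42 and 0.56, beside 0.01.

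**Figure D5:**
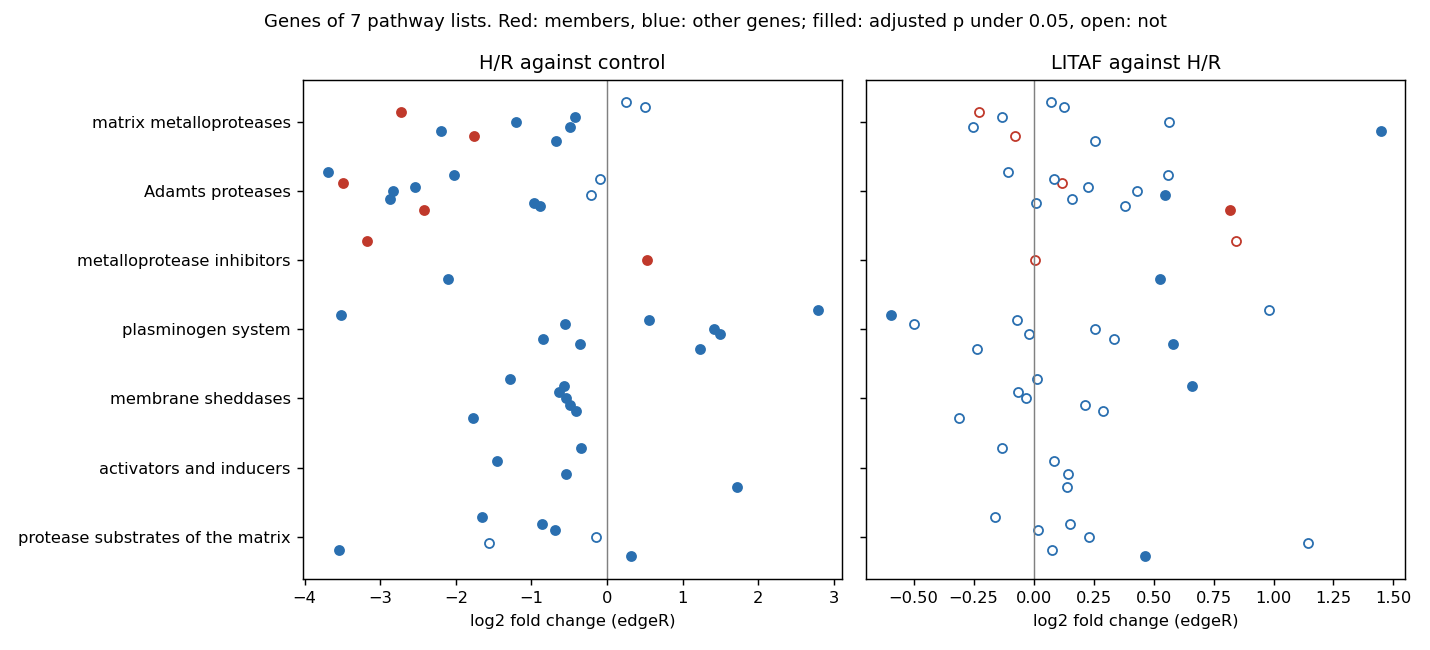
Log2 fold changes (edgeR) of the tested genes of 7 lists for H/R against control (left) and LITAF against H/R (right, with a narrower axis); red points are members, blue points other genes, filled points have an adjusted p under 0.05. Adamts, metalloprotease and sheddase genes lie mostly to the left of 0 after H/R, and the plasminogen genes on either side.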

How the data were processed

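RNA of 12 H9C2 libraries was sequenced after oligo(dT) selection, per the labels' protocols. The authors deposited expected counts per gene: the values are raw read counts per the file headers, but some are not whole. DESeq2 and edgeR are named without a role, per the submitters' processing notes. The sources used here do not name the aligner, quantifier, build or strand setting. Of 16204 rows, 57 repeats of an identical row were dropped and 72 gene IDs with differing rows were left out, leaving 16002. Counts were rounded to whole numbers, filtered by group with filterByExpr (11398 genes), scaled by TMM and tested in 1 fit of all 12 libraries with edgeR 4.0.16 (glmQLFit, robust; R 4.3.3, limma 3.58.1), two-sided, threshold 0.05 after Benjamini-Hochberg adjustment. Standard errors were derived from the F statistic (SE = log2 fold change / root of F). DESeq2 1.42.0, other scalings and filters, fits of 2 groups, a replicate block and each library left out were alternatives. The script was tested on simulated data. The profile likeness used log2 CPM with a prior count of 2.

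Members and lists were chosen with earlier results of these data known. All 9 members were named, and up to 6 other genes per list by smallest p, plus genes singled out for a call, a lost call or no call (such as Adamts2, Lrp1, Mmp28 and Adam12), chosen after their values were seen. Same-numbered control and H/R libraries correlated at 0.302 to 0.568 across genes in their deviations, and each correlated best with its own number. The labels name no pairing, and what the same-numbered libraries share was not tested. Same-numbered LITAF and H/R libraries correlated at 0.0543 to 0.197. The fit reported first used no pairing, and the replicate block took in the LITAF libraries as well. The common biological coefficient of variation was 14.5%. Of the listed genes, 2 are not reported here and were left out of the list counts.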

Additional observations from a re-analysis of the deposited data

Results flagged for a closer look

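Of 129 combinations of a gene and a group, 10 held a library whose gap to the nearest of the other 3 was above Dixon's limit for 4 values; chance gives about 1 in 20. Control library 2 was low for Mmp2 (1.00 CPM, the others 10.9 to 11.5) and Timp3 (6.39 CPM, the others 72.9 to 83.8). Adamts1 was high in control library 1 (1168 CPM, the others 951 to 985) and in LITAF library 4 (358 CPM, the others 326 to 331), which leaves the groups apart. Plau in H/R library 4 (0.168 CPM) rests on 3 counts. The H/R group also held Adamts14 in library 2 (1.71 CPM, the others 1.22 to 1.28), Mmp17 in library 1 (0.373 CPM, the others 0.684 to 0.729), Bgn in library 4 (989 CPM, the others 1063 to 1069) and Pcsk7 in library 4 (50.1 CPM, the others 42.1 to 43.3). In the LITAF group S100a10 in library 1 stood at 194 CPM, with the others at 231 to 235 CPM.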

How the results depend on the processing

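For LITAF against H/R, 556 genes were called with all 12 libraries. The count was 902 with DESeq2, 1098 when only these 2 groups were fitted (1108 with differing rows kept, chosen after seeing the data), 873 with the replicate block and 182 at an adjusted p under 0.01. Leaving out 1 library gave 244 (without H/R library 3 or LITAF library 4) to 1285 (without LITAF library 1), with 272, 279, 365 and 322 without H/R libraries 1, 2, 4 and LITAF library 3. Members called there numbered 1, Adamts1, but 2 without control library 2 and in the fit of the 2 groups alone, with Timp3, and 3 in that fit with Timp2 kept (2 with differing rows kept and without control library 2); leaving out each library gave 1 to 2. The sign turned, for values near 0 that did not pass, for Mmp14 (log2 -0.163 to 0.0254) and Adamts5 (-0.0604 to 0.254), each without LITAF library 1, and for Timp1 without H/R library 4, LITAF library 2 or LITAF library 4 (-0.0608 to 0.0659 over the libraries left out), with library totals (-0.0449) and with upper-quartile scaling (-0.00677). The cause was not tested. For H/R against control and LITAF against control, all 6 members kept direction and call in every alternative run, with 6768 to 7584 and 6854 to 7586 genes called over the fits that left out 1 library. The replicate block changed no member's call. Counts of 3 or fewer limit Mmp3 and Plau.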

Other observations

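Among the 43 genes that were far lower in control library 2 were Col6a1 and Col6a2, chains of collagen VI, and Pappa, which were chosen after their values were seen. Col6a1 stood at 6.78 CPM in control library 2, against a mean of 40.8 CPM in the other 3 control libraries and 1.62 CPM in H/R. For Col6a2 the same 3 values were 10.9, 47.3 and 3.67 CPM, and for Pappa 2.95, 48.1 and 4.03 CPM.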
